A study of Gossypium hirsutum with 24 samples.

Results

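The stress-related protein genes of cotton leaves are described here through 113 probe sets of the Affymetrix Cotton GeneChip, an array on which each transcript is read by a set of short probes. They are the probe sets that the study listed as stress-related and placed in none of its lists for hormones, transcription factors or secondary metabolism (43 removed), less 7 that match 3 genes not reported here. The array table holds 23972 probe sets, of which 15615 have values at 1 time or more. The 113 members match 86 genes of Gossypium raimondii, a diploid cotton whose gene identifiers (Gorai) name them here. The study built its lists from probe sets that differed between damaged and undamaged leaves at 1 time or more, so the members were selected on these same differences, which are given below as a description, without a test and in support of nothing.

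The plants were Gossypium hirsutum cv. CCRI12, a tetraploid upland cotton, at the stage of 6 to 7 expanded true leaves, 5 to 6 weeks after sowing. Leaves were harvested 6, 12, 24 and 48 h after third-instar larvae of the cotton bollworm (CBW, Helicoverpa armigera) began to feed, and undamaged plants kept in the same way and harvested at the same times served as controls. There were 3 arrays of CBW leaves and 3 of control leaves at each time, 24 in all, each from the pooled leaves of 3 plants in 1 pot. The labels and the study's methods differ on the number of larvae and the kind of bag, so the dose of feeding is not settled. In pooled whole leaves, more RNA per cell and more cells with the RNA cannot be told apart.

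Plants meet attack with receptors and with proteins that act on the attacker or protect the cell. Pathogenesis-related (PR) proteins accumulate after infection or wounding. Class 10 PR proteins are small intracellular proteins of the Bet v I fold, and glycoside hydrolases of family 17 include the beta-1,3-glucanases, which cut glucans of fungal walls and the plant's own callose. Dirigent-type proteins steer the coupling of phenolic radicals. Receptor proteins with leucine-rich repeats recognise foreign or altered molecules, and those that also carry an NB-ARC domain act inside the cell. Late embryogenesis abundant (LEA) proteins and dehydrins are known for protecting cells under water loss, and universal stress proteins (USP) bind nucleotides in many organisms.

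Names were found for 30 of the 113 members, 26 of them in the study's own annotation. The copy of that annotation used here is shortened and was chosen by response, so the named members lean to those that were higher in CBW leaves. At 48 h the 31 members called lower all lacked a name, as did 22 of the 51 called higher. A lack of falls among named members is therefore not a result. The other 83 are given by the Gorai identifier alone, with no role. Probe sets that may read several similar transcripts are common among the members, with 46 marked by the manufacturer as shared between transcripts, 7 as cross-reacting and 4 as reading alternative forms of a gene.

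Intensities are on a linear scale, and the median intensity of an array lay between 358 and 399. Log2 intensities of replicate arrays correlated at 0.935 to 0.995 across probe sets, and no pair of arrays held the same values. The 1 leaf marker that could be named, a chlorophyll A-B binding protein, had intensities of 78.3 to 899.9. It was lowest in control leaves at 24 h (78.3 to 94.2) and at 48 h (119.8 to 168.6), against 450.8 to 504.8 and 528.8 to 579.5 in CBW leaves, so it was itself not constant between groups. Its part in the results was not tested. At a given time the 6 arrays either all hold a value for a probe set or all lack it. Accordingly, 101 members were measured at all 4 times, 7 at 3, 2 at 2 and 3 at 1.

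Members lay both above and below the controls at each time, with more above. In the model fitted across all probe sets (limma, adjusted p of 0.05 or less), 54 of 108 members were higher and 32 lower in CBW leaves at 6 h. The background is high, with 26.1% of all probe sets higher and 36.5% lower at that time (62.6% called). Of 108 members measured at 12 h, 34 were higher (background 19.9%) and 28 lower (background 24.7%, 44.6% in all). The counts of the 24 h leaves were 49 higher (background 20%) and 37 lower (background 29.3%, 49.3% in all) of 109. After 48 h, 51 were higher (background 22.4%) and 31 lower (background 22.6%, 44.9% in all) of 107. The median log2 difference of the members was 0.50, 0.17, 0.37 and 0.42 at the 4 times, and that of all probe sets was -0.13, -0.04, -0.08 and 0.00. A log2 difference here is the CBW mean of log2 intensity less the control mean, so that 1 stands for 2-fold. Since the rule used these contrasts, nothing is read from the counts.

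Large rises were fewest at 12 h and large falls fewest at 6 h. From 6 to 48 h, 16, 10, 15 and 17 members were higher by 4-fold or more, and 2, 6, 10 and 7 were lower by as much. The matching shares of all probe sets were 5.5%, 3.76%, 4.24% and 4.43% higher and 2.85%, 1.74%, 3.2% and 2.24% lower. Over the 4 times, 24 members had such a rise (background 7.93%) and 15 such a fall (background 5.65%) somewhere, and 3 of 101 passed 4-fold at all 4 times (background 1.87%). Among those measured at all 4 times, the large rises peaked in 3, 4, 6 and 8 members at the 4 times in order, and the large falls were deepest at 6 h in 1, 12 h in 2 and 24 h in 7. By direction, 55 of the 113 members were called higher only (background 32.8%), 49 lower only (background 42.9%) and 8 both ways (background 6.13%). Of the 101 members with values at all 4 times, 22 were higher each time (background 8.01%) and 14 lower (background 11.2%).

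**Figure D1:**
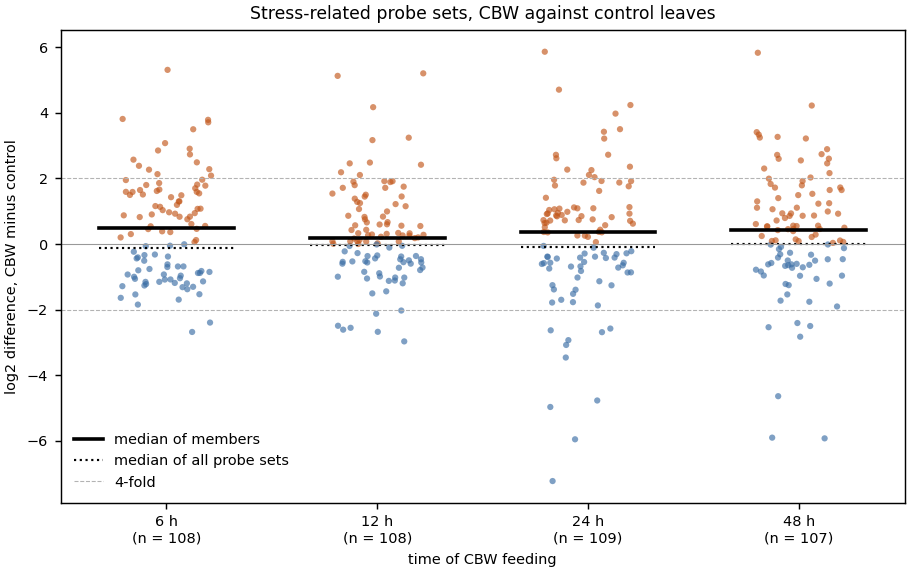
Each point is 1 stress-related probe set, placed by its log2 difference between CBW and control leaves (vertical axis) at 6, 12, 24 or 48 h, with orange above 0 and blue below. The thick bar is the median of the members (0.50, 0.17, 0.37 and 0.42), the dotted bar that of all probe sets (-0.13, -0.04, -0.08 and 0.00), and dashed lines mark 4-fold; the spread below 0 is widest at 24 h.

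The largest rise was that of a disease resistance-responsive family protein of the dirigent type (Gorai.003G083500.1). At 6 h its intensities were 14.2, 13.7 and 10.1 in control leaves and 500.4, 721 and 341 in CBW leaves. At 24 h they were 12.5, 8.04 and 7.95 in control leaves and 1018, 225 and 693 in CBW leaves, and at 48 h 26.7, 9.99 and 12.6 in control leaves and 923, 775 and 868 in CBW leaves. No array of CBW leaves came near a control array at any time. The log2 differences were 5.31, 5.21, 5.87 and 5.83 at 6, 12, 24 and 48 h (SE 0.45 each, n = 3 per group). In control leaves this probe set was the dimmest of the members, so the size of the difference rests on values near the bottom of the scale. With every intensity below the 20th percentile of its array raised to it (the floor), the difference at 24 h was 2.18, and without CBW replicate 2 at 24 h, the dimmest of its group, it was 6.50.

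Class 10 PR proteins were higher as well. At 6 h the probe set of Gorai.011G197300.1 had intensities of 73, 96.4 and 64.9 in control leaves and 836, 1142 and 1077 in CBW leaves. At 12 h it had 119, 169 and 66.1 in control leaves and 785, 307 and 288 in CBW leaves, and at 24 h 87.8, 77.5 and 22.8 in control leaves and 2657, 817 and 1278 in CBW leaves. Groups did not overlap at any time, but the gap was narrowest at 12 h. The log2 differences of this probe set were 3.71, 1.90, 4.71 and 4.22 (SE 0.63). The class 10 PR protein of Gorai.011G197500.1 had 2.91, 1.29, 3.98 and 2.55 (SE 0.64), with overlap at 12 h. The unnamed neighbour in identifier, Gorai.011G197200.1, had 3.08, 2.11, 3.50 and 1.92 (SE 0.62), lowest at 48 h rather than at 12 h. In all 3 the control array of replicate 3 at 24 h was well below its fellows, at 22.8, 31.6 and 86.7 in that order. Without it their 24 h differences were 4.09, 3.18 and 2.75, and with the floor that of Gorai.011G197300.1 was 3.56.

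VdI2, another protein with a Bet v I domain (Gorai.005G062700.1), behaved differently in time. CBW leaves had intensities of 426, 676 and 405 at 6 h, then 635, 623 and 572 at 12 h. Those of 24 h were 1069, 1072 and 935, followed by 1659, 2556 and 2214 at 48 h. Each later group lay above the earlier one from 12 h on. Between 6 and 48 h the CBW leaves differed by 2.11 (SE 0.26, adjusted p = 6.00e-06 from limma), and control leaves, over the shorter span from 6 to 24 h, by 0.57 (SE 0.26, adjusted p = 0.127 from limma). Against the controls of the same time the log2 differences were 0.46, 0.34, 0.95 and 2.16 (SE 0.26).

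Among the glycoside hydrolases of family 17, the probe set of Gorai.009G085300.1 stood out. Its control intensities ranged from 12.9 to 84.0 over all times. CBW leaves had 565, 581 and 674 at 6 h, then 717, 615 and 959 at 12 h. Those of 24 h had 182, 197 and 175, followed by 244, 194 and 236 at 48 h. The level was lower late than early and still above every control array. Its log2 differences were 3.79, 5.13, 2.04 and 3.34 (SE 0.36), and that of 12 h was 2.70 with the floor. Its controls also dipped at 12 h, with steps of -1.03 (SE 0.36, adjusted p = 0.0263 from limma) and 1.07 (SE 0.36, adjusted p = 0.0245 from limma). Within CBW leaves the step from 12 to 24 h was -2.02 (SE 0.36, adjusted p = 3.64e-04 from limma). Gorai.006G079400.1 moved the other way over that step, from 1405, 605 and 453 to 5059.8, 2584 and 2729, a log2 difference of 2.18 (SE 0.50, adjusted p = 0.00347 from limma). Against controls it was at 2.39, 2.19, 4.24 and 1.72 (SE 0.50). Gorai.013G202800.1, also of family 17, had 3.50, 3.24 and 2.46 at 6, 12 and 48 h (2.08 at 6 h with the floor), and the glucan endo-1,3-beta-glucosidase 11 of Gorai.008G260000.1 had 0.87, 1.75 and 1.65, both without values at 24 h.

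A periplasmic beta-glucosidase of family 3 (Gorai.006G259500.1) had controls that moved far. At 6 h its intensities were 1734, 4975 and 6152 in control leaves and 3961, 3937 and 3058 in CBW leaves, with full overlap. At 12 h they were 371, 305 and 175 in control leaves and 5721, 4007 and 5079.7 in CBW leaves. The 2 groups were then apart, the control arrays lying below those of 6 h, and the log2 difference went from -0.05 ± 0.56 at 6 h to 4.17 ± 0.56 at 12 h. At 24 and 48 h it was 1.96 and 2.74. The other probe set of the gene gave -1.27, 2.46, 0.71 and 1.49 (SE 0.41), and its fall at 6 h was not called without control replicate 2 or 3 or CBW replicate 3 of that time (-1.06, -1.07 and -1.04).

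The LEA-14 group, which holds proteins related to NDR1 and HIN1 of other plants, comprised 6 probe sets of 3 genes. Called higher at the 4 times were 6, 5, 6 and 6 of them (background 26.1%, 19.9%, 20% and 22.4%), and none was called lower. The names held here lean to rises, so the lack of falls in this group is not read as a result. The median log2 difference of these probe sets was 2.38, 1.48, 2.49 and 3.23 at the 4 times. YLS9 (Gorai.006G150200.1), named after a gene of ageing Arabidopsis leaves, had intensities of 723, 1389.7 and 585 in control leaves and 4139, 5371 and 5572 in CBW leaves at 6 h. At 48 h it had 301, 186 and 390.0 in control leaves and 3094, 2872 and 2962 in CBW leaves. The CBW leaves of both times lay far above their controls, and the controls at 48 h lay below those at 6 h. Its log2 differences were 2.57, 1.80, 3.22 and 3.41 (SE 0.53). In control leaves YLS9 was lower at 24 than at 6 h, with a log2 difference of -1.51 (SE 0.53, adjusted p = 0.0494 from limma), with arrays of both times overlapping. The LEA glycoprotein of Gorai.003G140400.1 had 1.66, 1.45, 2.36 and 3.27 (SE 0.54), and within CBW leaves its level at 48 h against 6 h differed by -0.09 (SE 0.54, adjusted p = 0.9 from limma).

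**Figure D2:**
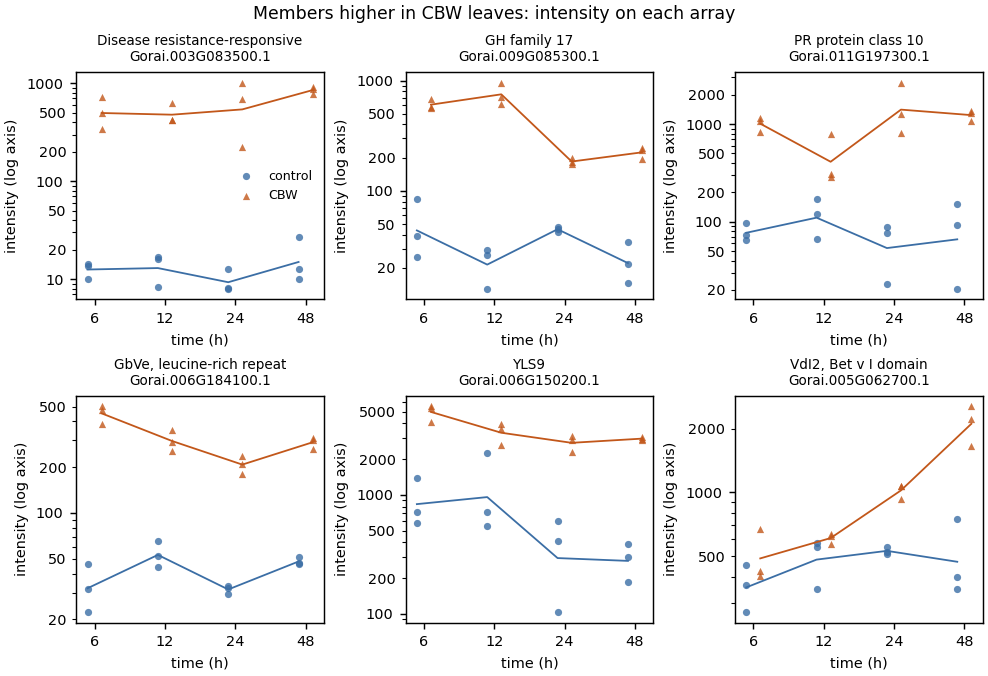
Intensity (vertical, log axis) of 6 members on each of the 24 arrays by time (horizontal), with circles for control and triangles for CBW leaves and lines through the geometric means. The dirigent-type protein, the family 17 hydrolase, the class 10 PR protein, GbVe and YLS9 are apart at all 4 times, while VdI2 overlaps at 6 and 12 h and is apart at 24 and 48 h.

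Receptor-type members were higher at 6, 24 and 48 h, and GbVe also at 12 h. GbVe (Gorai.006G184100.1), a leucine-rich repeat protein that shares its name with the Ve genes for resistance to Verticillium wilt, had intensities of 46.5, 31.8 and 22.2 in control leaves and 383, 476 and 503 in CBW leaves at 6 h and 33.1, 29.3 and 32.1 in control leaves and 180.3, 236 and 211 in CBW leaves at 24 h. Its groups were apart at all 4 times with little spread. The log2 differences were 3.81, 2.48, 2.72 and 2.60 (SE 0.20), and that of 6 h was 1.99 with the floor. The 5 probe sets of NB-ARC or leucine-rich repeat proteins, from 4 genes, had medians of 1.96, 0.28, 1.13 and 1.79. Of these, 5, 1, 5 and 5 were called higher (background 26.1%, 19.9%, 20% and 22.4%), so the count at 12 h was near the background. Gorai.008G193500.1, with NB-ARC and leucine-rich repeats, had 2958, 2914 and 2125 in control leaves and 3731, 2983 and 2949 in CBW leaves at 12 h, against 1078, 1867 and 1459 in control leaves and 4569, 4518 and 8398 in CBW leaves at 6 h. Its control leaves at 12 h exceeded those at 6 h by 0.88 (SE 0.31, adjusted p = 0.0263 from limma).

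Universal stress proteins were called higher in 3 of 4 probe sets at 6 h (background 26.1%). At the later times each one measured was called higher (background 19.9%, 20% and 22.4%). The 4 probe sets of 2 genes had medians of 1.16, 1.63, 1.59 and 1.99. The USP-like protein of Gorai.007G304400.1 had intensities of 118, 104 and 131 in control leaves and 460.1, 300.0 and 412 in CBW leaves at 12 h, and its log2 differences were 0.54, 1.71, 1.41 and 2.30 (SE 0.23). Dehydrin 2 (Gorai.009G189500.1) and the LEA-5 protein ARG2 (Gorai.004G090800.1) were among the brightest members in control leaves. ARG2 had 5928, 5059.6 and 1979 in control leaves and 14403, 14979 and 14983 in CBW leaves at 24 h, and its CBW arrays of all 4 times lay between 12538 and 18132. Its log2 differences were 1.59, 1.07, 1.92 and 1.65 (SE 0.36), and those of dehydrin 2 were 1.49, 0.57, 1.12 and 1.40 (SE 0.27).

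A tyrosine-protein phosphatase like SIW14, a protein known from yeast (Gorai.001G195900.1), combined a high level in CBW leaves with a drop in controls. Control intensities went from 592, 886 and 834 at 6 h to 204, 108 and 115 at 12 h, a log2 difference of -2.48 (SE 0.30, adjusted p = 2.06e-06 from limma). CBW intensities went from 3256, 1947 and 1874 to 1786, 1069 and 971 over the same step. The log2 differences between CBW and control leaves were 1.59, 3.17, 2.26 and 2.03 (SE 0.30). A tautomerase of the MIF superfamily (Gorai.006G185500.1) was higher by 2.73, 1.92, 2.27 and 2.60 (SE 0.43).

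The 15 members with falls of at least 4-fold all lacked a name in the shortened annotation used here. Since that copy leans to rises, the lack of names is not a trait of these genes. The paper itself names some stress-related genes that feeding suppressed. Gorai.009G035500.1 (LOC107907099) had intensities of 6118, 3288 and 5919 in control leaves and 25.5, 23.9 and 57.7 in CBW leaves at 24 h. At 48 h it had 1240.0, 7797 and 1013 in control leaves and 33, 42.5 and 32.4 in CBW leaves. CBW arrays lay between 23.9 and 57.7 at both times and control arrays between 1013 and 7797. Its log2 differences were -1.38, -1.20, -7.23 and -5.91 (SE 0.83). The small differences at 6 and 12 h have unlike settings: at 6 h the control arrays ran from 448 to 6768, and at 12 h they were down to 69.2, 86.3 and 139. Control leaves at 24 h exceeded those at 12 h by 5.71 (SE 0.83, adjusted p = 2.53e-05 from limma). CBW leaves fell by a log2 of 4.35 from 6 to 48 h (adjusted p = 3.95e-04 from limma).

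Gorai.002G161000.1 had intensities of 2700.4, 58 and 349 in control leaves and 282, 1267 and 326 in CBW leaves at 6 h and 3066, 1314 and 4033 in control leaves and 63.7, 26 and 40.9 in CBW leaves at 24 h. At 6 h the groups overlapped fully and at 24 h no array of CBW leaves came near a control array. Its log2 differences were 0.36, -2.97, -5.96 and -5.93 (SE 1.11), and the other probe set of the gene gave -0.07, -2.03, -4.77 and -4.64 (SE 0.96). Within CBW leaves the level at 48 h against 6 h differed by -3.66 (SE 1.11, adjusted p = 0.0123 from limma). The same late course was seen for Gorai.005G184600.1 (LOC107886601), at 0.30, -1.11, -2.63 and -2.54 (SE 0.72), where control leaves at 24 h exceeded those at 6 h by 2.80 (SE 0.72, adjusted p = 0.0099 from limma) and CBW leaves between 6 and 48 h differed by 0.25 (SE 0.72, adjusted p = 0.803 from limma). Gorai.N010400.1 had -0.38, -0.37, -2.93 and -1.73 (SE 0.97), on control intensities that ranged from 23.0 to 564 at 6 h.

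Gorai.003G015700.1 was lower at all times with little spread. It had 3508, 2985 and 3399 in control leaves and 729, 480.0 and 697 in CBW leaves at 6 h, 2161, 3043 and 3001 in control leaves and 827, 1246 and 951 in CBW leaves at 12 h and 2836, 2906 and 3132 in control leaves and 299, 347 and 411 in CBW leaves at 24 h. Control arrays lay between 2161 and 3508 over all times. Log2 differences came to -2.40, -1.44, -3.08 and -2.83 (SE 0.17), and the CBW step from 12 to 24 h was -1.51 (SE 0.17, adjusted p = 3.58e-06 from limma). Gorai.002G219200.1 had -1.06, -3.46 and -1.91 at 6, 24 and 48 h (SE 0.62). With the floor, the 24 h differences of Gorai.009G035500.1, Gorai.002G161000.1 and Gorai.002G219200.1 were -5.49, -4.53 and -2.15. Among dim members, Gorai.011G263500.1 had -2.68, -2.49, -1.87 and -2.50 (SE 0.58), Gorai.009G143900.1 had -2.68 ± 0.30 at 12 h, its only measured time, and Gorai.010G049900.1 had -2.58 and -2.41 at 24 and 48 h. Their CBW arrays lay between 16.1 and 72.4, and with intensities raised to the 20th percentile of the array the difference of the first was -0.46 at 6 h, that of the second -0.92 at 12 h and that of the third -0.34 at 24 h. Also with falls of 4-fold or more were Gorai.010G228600.1, at -2.13 ± 0.40 at 12 h, its only measured time, and both probe sets of Gorai.008G274600.1 at 12 h (-2.56 and -2.61), which are bright in controls at that time. Gorai.010G228600.1 was dim as well. Its CBW arrays (31.85, 28.14 and 25.14) and control replicate 3 (69.13) lay below the 20th percentile of their arrays.

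**Figure D3:**
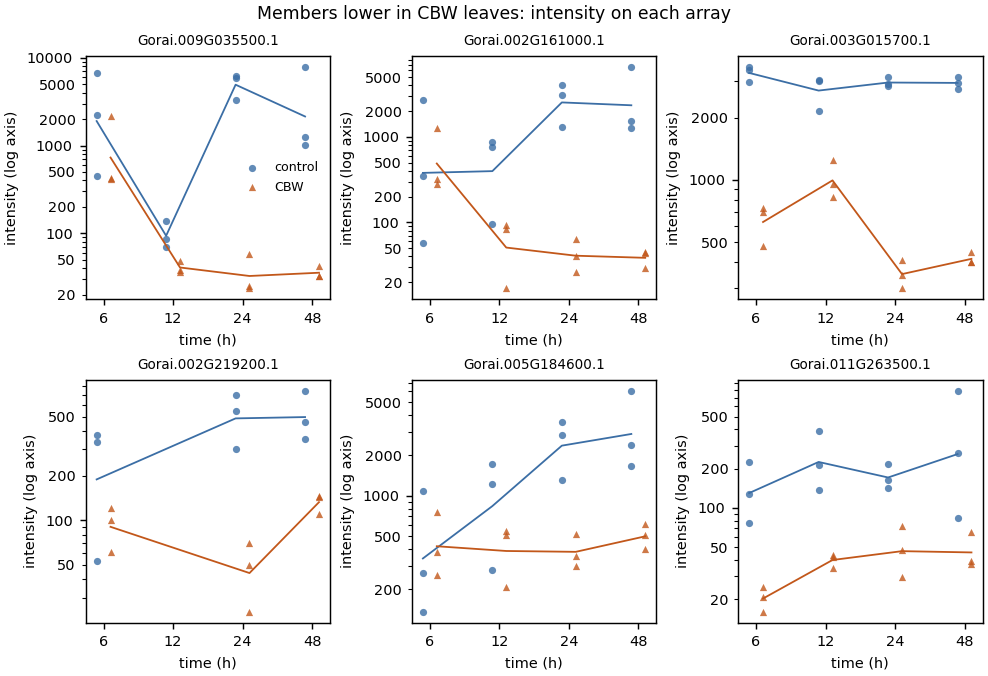
Intensity (vertical, log axis) of 6 members without a name on each of the 24 arrays by time (horizontal), with circles for control and triangles for CBW leaves and lines through the geometric means. Gorai.003G015700.1 is apart at all 4 times, while Gorai.009G035500.1, Gorai.002G161000.1 and Gorai.005G184600.1 overlap at 6 h and are apart at 24 and 48 h; Gorai.002G219200.1 has no values at 12 h.

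Control arrays of the same time differed from each other in the same members. Among the 22 to 24 measured members of the 24 with large rises, control replicate 2 at 48 h was the lowest of its 3 arrays for 16 of 22, and control replicate 3 at 24 h for 17 of 23. Over all probe sets these arrays were the lowest for 47.8% and 33.9%. The same arrays were the highest of their 3 for 10 of 12 and 10 of 13 measured members with large falls (37.9% and 33.5% over all probe sets). At 6 h, replicate 1 was the highest for 8 of 11 large falls (37.1% over all probe sets). It was the lowest for 11 of 24 large rises (38.2% over all probe sets), and replicate 3 for 12 of 24 (27.1%). The pots that were lower in the rising members were thus higher in the falling ones at 24 and 48 h, in leaves with no larvae. These arrays also enter the differences that chose the members, so the pattern is a description.

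Time within control leaves was not used to choose the members, although the same control arrays enter the CBW contrasts. The plants were kept in a daily cycle of light and dark, and the hour of day at harvest was not part of the model. In both kinds of leaf, a step between times can therefore hold the hour of day as well as the hours of treatment. The part of the hour of day was not tested. From 6 to 12 h, 36 of 105 members rose and 24 fell (limma, adjusted p of 0.05 or less; 57.1%, background 43.1% of all probe sets, 19.9% higher and 23.2% lower). From 12 to 24 h, 20 of 104 rose (background 20.2%) and 34 fell (background 18.4%), 51.9% in all against a background of 38.6%. Between 6 and 24 h 11 of 106 rose (background 11.8%) and 7 fell (background 10.3%), 17% in all against 22.1%. Between 24 and 48 h there were 0 rises and 2 falls among 105 (background 0.37%). A rise to 12 h and a fall after it were both called in 26 of 103 members (25.2%), against 11.6% of all probe sets, and the reverse in 14 (13.6%, against 14.4%). Both steps share the 3 control arrays of 12 h, which also enter the CBW contrast of 12 h that helped to choose the members. All probe sets are therefore not a like background. Some genes count more than once, such as Gorai.008G274600.1 among the rises and Gorai.004G237800.1 in the reverse, so these counts are not of independent members.

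Gorai.008G274600.1 turned up and back in control leaves. Control intensities were 151, 163.1 and 119 at 6 h, rose to 2818, 2552 and 1355 at 12 h and were back at 95.3, 119 and 158 by 24 h. CBW leaves had 534, 251 and 261 at 6 h and 592, 327 and 247 at 12 h. By 24 h they had 184, 218 and 129. The control arrays of 12 h lay above all others, and the CBW arrays of 6 and 12 h overlapped. The control steps were 3.90 (SE 0.35, adjusted p = 5.30e-08 from limma) and -4.14 (SE 0.35, adjusted p = 5.06e-08 from limma), and the CBW step from 6 to 12 h was 0.15 (SE 0.35, adjusted p = 0.768 from limma). A second probe set gave control steps of 3.40 (SE 0.39, adjusted p = 1.17e-06 from limma) and -4.28 (SE 0.39, adjusted p = 1.23e-07 from limma). Against the controls of each time the first probe set was at 1.19, -2.56, 0.51 and 0.09 (SE 0.35), with the fall at 12 h where the controls rose. Between 6 and 24 h the control arrays overlapped, while the CBW arrays of 24 h lay below those of 6 h. The second probe set was at 0.55 at 6 h and was called higher at no time.

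Gorai.013G248100.1 (LOC107945454) rose in control leaves from 388, 323 and 308 at 6 h to 2379.8, 1475 and 1122 at 12 h, by 2.22 (SE 0.24, adjusted p = 4.96e-07 from limma). Its CBW arrays stayed between 648 and 842 at these times. Gorai.012G099600.1 rose by 0.94 (SE 0.12, adjusted p = 3.06e-06 from limma) and then dropped by 0.99 (SE 0.12, adjusted p = 2.45e-06 from limma). Gorai.007G319900.1 dropped by 1.63 (SE 0.23, adjusted p = 2.04e-05 from limma) from 12 to 24 h. Gorai.006G088100.1 rose in both kinds of leaf between 6 and 12 h, by 1.33 (SE 0.15, adjusted p = 6.95e-07 from limma) in control leaves and by 1.35 (SE 0.15, adjusted p = 6.76e-07 from limma) in CBW leaves. Its values at 12 h were 150.0, 124 and 129.8 in control leaves and 239, 239 and 252 in CBW leaves, below the median of every array, and with the floor the control step was 0.24.

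Of the members that dropped at 12 h in controls, Gorai.008G090400.1 went from 332, 237 and 254 to 72.1, 66.7 and 95.2 and back to 574, 544 and 425. The steps were -1.82 (SE 0.22, adjusted p = 2.26e-06 from limma) and 2.73 (SE 0.22, adjusted p = 2.52e-08 from limma). Its CBW leaves made a smaller turn, with steps of -1.00 (SE 0.22, adjusted p = 0.00145 from limma) and 1.09 (SE 0.22, adjusted p = 0.00124 from limma), and overlapped the controls at 24 h. Gorai.004G237800.1, read by 4 probe sets, had steps of -1.02 (SE 0.12, adjusted p = 1.63e-06 from limma) and 1.00 (SE 0.12, adjusted p = 3.50e-06 from limma) with the probe set that carries the symbol LOC107894032. The beta-glucosidase of Gorai.006G259500.1 dropped by 3.80 (SE 0.56, adjusted p = 2.35e-05 from limma) and rose again by 2.95 (SE 0.56, adjusted p = 4.13e-04 from limma). Gorai.013G163600.1 dropped by 1.07 (SE 0.11, adjusted p = 2.75e-07 from limma) and was still lower at 24 than at 6 h, with a difference of -0.47 (SE 0.11, adjusted p = 0.00474 from limma).

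**Figure D4:**
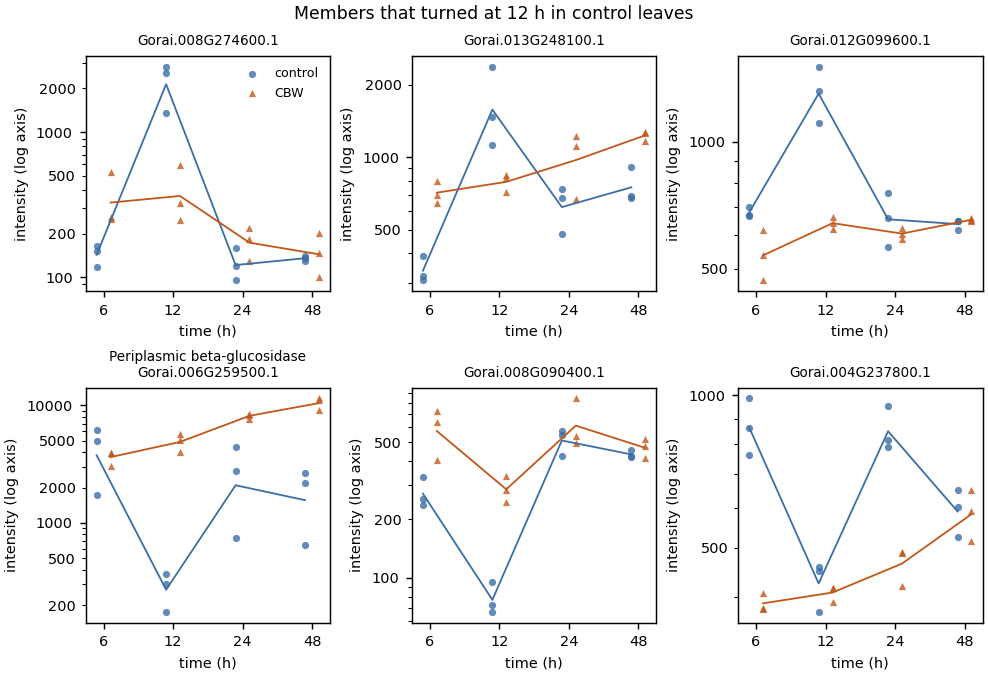
Intensity (vertical, log axis) of 6 members on each of the 24 arrays by time (horizontal), with circles for control and triangles for CBW leaves and lines through the geometric means. In the upper 3 genes the control arrays peak at 12 h and in the lower 3 they dip at 12 h, while both CBW steps around 12 h were called for Gorai.008G090400.1 alone among these 6, at -1.00 and 1.09.

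Some members changed in control leaves between 6 and 24 h without a called turn at 12 h. Gorai.008G025200.1 rose in control leaves from 266, 260.4 and 239 at 6 h to 1615, 1637 and 1527 at 24 h. The log2 difference was 2.64 (SE 0.17, adjusted p = 3.38e-09 from limma). CBW leaves rose less, from 329, 256 and 222 to 552, 405 and 451, and its difference against controls went from 0.06 ± 0.17 at 6 h to -1.77 ± 0.17 at 24 h. Gorai.001G083800.1, read by 3 probe sets, rose in control leaves between 6 and 24 h by 0.97 (SE 0.12, adjusted p = 1.34e-05 from limma) with the first, and by 0.50 and 0.72 with the others. Gorai.002G062100.1 fell by 0.36 (SE 0.08, adjusted p = 0.00526 from limma), a call lost when only the 2 groups were fitted (adjusted p = 0.0922 from limma). Between 24 and 48 h the 2 called falls were those of a Gorai.004G237800.1 probe set, at -0.62 (SE 0.13, adjusted p = 0.0459 from limma), and of Gorai.009G199700.1, at -1.33 (SE 0.28, adjusted p = 0.046 from limma). Either was lost on leaving out single arrays. These 2 probe sets did turn, since their control arrays of 24 h also lay above those of 12 h.

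Within CBW leaves, 19 of 105 members rose and 19 fell between 6 and 12 h (36.2%, background 40.2%). Between 12 and 24 h, 9 of 104 rose and 13 fell (21.2%, background 25.8%), and between 24 and 48 h 1 fell of 105 (0.952%, background 1.71%). A rise to 12 h and a fall after it were both called in 6 of 103 (5.83%, background 8.09%) and the reverse in 2 (1.94%, background 8.06%). Over the whole course from 6 to 48 h, 30 of 105 rose and 28 fell (55.2%, background 44.3%, of which 26.6% rose and 17.6% fell). With arrays centred on their median, the split over all probe sets was 20.7% and 22.7%, and that of the members 26 and 29. The shift of the median of all probe sets between these scalings was 0.08 against -0.03.

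Early members of the CBW leaves subsided. Gorai.012G028400.1 had 898, 886 and 960.3 at 6 h, 574, 416 and 498 at 12 h and only 352, 315 and 339 at 48 h. Its control arrays at 48 h were 294, 264 and 290.4, just below. The log2 difference between 6 and 48 h in CBW leaves was -1.45 (SE 0.14, adjusted p = 3.04e-07 from limma). Gorai.013G165600.1 went from 2376, 2297 and 2361 to 974, 914 and 981, or -1.29 (SE 0.15, adjusted p = 2.66e-06 from limma), and Gorai.011G013000.1 fell by 0.83 (SE 0.11, adjusted p = 1.05e-05 from limma). Between 6 and 12 h, Gorai.007G185200.1 fell by 0.81 (SE 0.16, adjusted p = 4.92e-04 from limma).

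Other members rose within CBW leaves from a low level at 6 h. Gorai.002G062100.1 had CBW intensities of 1576, 1505 and 1501 at 6 h and 2599, 2611 and 2576 at 48 h, the latter within the spread of the controls of that time, 2777, 2422 and 2679. The log2 difference over the course was 0.77 (SE 0.08, adjusted p = 1.19e-06 from limma), and against controls the gene was at -1.14, -0.47, -0.27 and -0.01 (SE 0.08). Gorai.001G083800.1 rose by 0.79 (SE 0.09, adjusted p = 3.25e-06 from limma) with its second probe set, and by 0.78 and 0.72 with the others. Between 6 and 12 h, Gorai.008G251200.1 rose by 1.38 (SE 0.19, adjusted p = 1.20e-05 from limma), staying below the controls of each time. Gorai.013G108200.1 rose by 1.63 (SE 0.23, adjusted p = 1.27e-05 from limma), and its controls rose over the same step by 1.30 (SE 0.23, adjusted p = 1.17e-04 from limma). At 48 h its CBW arrays were at 368, 429.9 and 404, below the controls of 749, 709.6 and 613.

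In all, 8 members were called higher than controls at 1 time and lower at another, as were 6.13% of all probe sets. Among them were Gorai.008G274600.1, Gorai.013G248100.1, Gorai.006G088100.1 and the second probe set of Gorai.006G259500.1. Several of these calls were not firm. Without CBW replicate 1 the 6 h rise of Gorai.008G274600.1 was 0.84 and missed the threshold. With the floor the 48 h falls of Gorai.011G068500.1 and Gorai.006G088100.1 were -0.027 and -0.00019. Gorai.007G319900.1 had 192, 299 and 252 in control leaves and 639, 658 and 774 in CBW leaves at 6 h and 579.8, 1107 and 486 in control leaves and 460.2, 455 and 429 in CBW leaves at 12 h, or 1.50, -0.60, 0.72 and 0.29 over the 4 times (SE 0.23). The call at 12 h was lost on leaving out control replicate 2 (-0.25) or any 1 of the CBW arrays (-0.57 to -0.62), and on fitting only the 2 groups. Gorai.011G068500.1 had 1.13, 0.17, 0.35 and -0.97 (SE 0.25) at intensities of 26.2 to 124.3. Gorai.009G430200.1 had 0.46, 0.01, 0.22 and -0.46 (SE 0.13), the smallest largest difference of the 113 members. The unnamed Gorai.007G348500.1 overlapped the controls at 6 h and was at -1.22, 1.25, 3.42 and 1.11 (SE 0.57), or 2.59 at 24 h with the floor.

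Several probe sets of a gene gave like readings. For 23 genes with 2 or more member probe sets, covering 50 members, all probe sets of the gene had the same sign in 21 of 22 genes at 6 h and 19 of 22 at 12 h. By 24 h this held for 23 of 23, and later for 20 of 21. The median gap between the lowest and highest log2 difference of a gene was 0.30, 0.19, 0.34 and 0.30. The greatest gap was 2.26, for Gorai.009G035500.1 at 24 h, where a dim probe set read 245, 87.6 and 348 in control leaves and 6.31, 5.81 and 6.62 in CBW leaves. Gorai.001G083800.1 was lower at all times with each of its 3 probe sets. The first gave -0.93, -1.02, -1.02 and -1.21, the second -0.70, -0.60, -0.57 and -0.33 and the third -0.62, -0.72, -0.69 and -0.50. One probe set of Gorai.007G171700.1 was at -1.29, 0.18, -0.58 and -0.15. Probe sets of 1 gene can share transcripts, so they are not independent readings.

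**Figure D5:**
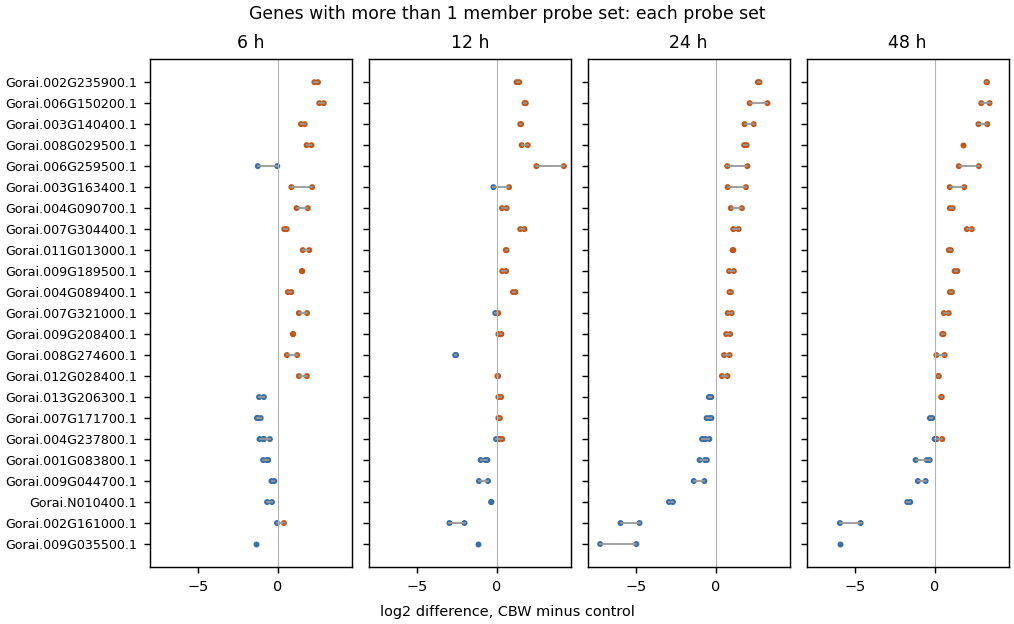
Each row is 1 of the 23 genes with 2 or more member probe sets and each panel a time, with a point for each probe set at its log2 difference between CBW and control leaves (horizontal) and a line joining the lowest and highest. At 24 h all 23 genes have their points on the same side of 0, and the longest line, 2.26, is that of Gorai.009G035500.1.

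Levels and sizes of response set limits. For 16 members every control intensity lay below the 20th percentile of its array. Besides the dirigent-type protein and the family 17 hydrolase of Gorai.009G085300.1, the dimmest in control leaves were a universal stress protein (Gorai.008G029500.1), with 19.6, 25.7 and 28.5 at 6 h, and the glucosidase of Gorai.008G260000.1. Besides ARG2 and dehydrin 2, the brightest were Gorai.004G090700.1, at 1.86, 0.60, 1.62 and 1.11 (SE 0.30), and Gorai.009G069500.1, at -1.00, -0.46, -0.41 and -0.27 (SE 0.11). The members with the smallest responses had largest log2 differences of 0.46 (Gorai.009G430200.1), 0.51 (a probe set of Gorai.004G237800.1) and 0.63 (Gorai.007G290200.1). The sources used here do not name the stress-related probe sets that missed the list. Gorai.009G282000.1 was the 1 member called at no time in the model used here, at -1.04, -0.38, -1.26 and -0.64.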

How the data were processed

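Leaves of CBW-damaged and undamaged plants were compared on 24 arrays, 3 per treatment and time. The authors computed signal intensities with MAS5, and these deposited intensity values, on a linear scale, were used; detection calls and the scaling target are not given in the sources used here. The labels describe both a biotin label and dye pairs, and the deposited values hold 1 intensity per array. Intensities were taken to log2 without a floor and fitted with limma 3.58.1 in R 4.3.3 over all probe sets with values, with 8 group means (lmFit, contrasts.fit, eBayes). Residual degrees of freedom were 4 to 16 for the members. All groups share 1 estimate of the spread per probe set, so a probe set has nearly the same SE at each time. P-values were adjusted by the Benjamini-Hochberg method over all probe sets tested in a contrast, and a call is an adjusted p of 0.05 or less. The labels call the replicates biological. With 3 arrays per group the smallest exact two-sided permutation p is 0.1, so separation of arrays is stated instead. The number of arrays limits the precision.

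Members were the listed probe sets left after the removals given in the report, and members and lists were chosen with earlier results of these data known. CBW and control leaves of the same time are compared as a description because the study's list rests on that contrast; contrasts between times within a treatment are tested. Members named in the text were the 12 highest rises and 10 deepest falls with arrays apart, the 3 lowest adjusted p-values in each direction for each contrast between times, genes with 3 or more probe sets, members called both ways, and the 4 dimmest and 4 brightest in control leaves, with 1 probe set per gene. Members named to show a family by its annotation (a NB-ARC protein, a USP-like protein, a tautomerase) were chosen after their values were seen. Alternatives were quantile normalization, centring on the array median, a floor at the 20th percentile, leaving out dim probe sets, the replicate number as a block, an intensity trend in eBayes, fitting only the groups compared, and leaving out each array. The script was tested on simulated data. A comparison with stress-annotated probe sets outside the list was not run, because names were held for too few of them. Genome coordinates and sequences were not used here.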

Additional observations from a re-analysis of the deposited data

Results flagged for a closer look

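For 12 members the 3 CBW arrays lay above the 3 control arrays at 1 time and below them at another, 12 of 113, as for 11.5% of all probe sets. The difference between the 2 times was not tested, since the contrasts behind it chose the members. Values are log2 differences between CBW and control leaves. The second probe set of Gorai.006G259500.1 was at 2.46 (SE 0.41) at 12 h and -1.27 (SE 0.41) at 6 h. Gorai.008G274600.1 was at 1.19 (SE 0.35) at 6 h and -2.56 (SE 0.35) at 12 h. A second probe set of Gorai.008G274600.1 was at 0.85 (SE 0.39) at 24 h and -2.61 (SE 0.39) at 12 h. One probe set of Gorai.004G237800.1 was at 0.46 (SE 0.13) at 48 h and -0.51 (SE 0.13) at 6 h. The 4 probe sets of that gene ran from -0.018 to 0.46 at 48 h, where only 1 was called. The probe sets of Gorai.008G274600.1 share the 12 h fall.

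Gorai.013G206300.1 was at 0.39 (SE 0.17) at 48 h and -0.88 (SE 0.17) at 6 h. Gorai.006G088100.1 was at 0.86 (SE 0.15) at 12 h and -0.51 (SE 0.15) at 48 h. Gorai.009G430200.1 was at 0.46 (SE 0.13) at 6 h and -0.46 (SE 0.13) at 48 h. Gorai.012G099600.1 was at 0.034 (SE 0.12) at 48 h and -1.02 (SE 0.12) at 12 h. Gorai.007G319900.1 was at 1.50 (SE 0.23) at 6 h and -0.60 (SE 0.23) at 12 h. Gorai.011G068500.1 was at 1.13 (SE 0.25) at 6 h and -0.97 (SE 0.25) at 48 h. Gorai.013G248100.1 was at 1.08 (SE 0.24) at 6 h and -1.00 (SE 0.24) at 12 h. Gorai.009G199700.1 was at 0.67 (SE 0.28) at 12 h and -1.39 (SE 0.28) at 24 h. For Gorai.012G099600.1 the rise was far smaller than the fall. Gorai.011G068500.1 lay among the dim values, and a floor at the 20th percentile turned its sign at 6 h. At 6 and 12 h the control arrays of several of these genes moved between the times, and their part in the flip was not tested. Groups of 3 arrays were too small to check single arrays for outliers.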

How the results depend on the processing

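The counts of members called between CBW and control leaves stayed within 1.5 times under every alternative run. With 1 array left out they ranged from 80 to 89 at 6 h (86 with all arrays), 50 to 64 at 12 h (62), 76 to 85 at 24 h (86) and 69 to 78 at 48 h (82). In control leaves they ranged from 48 to 60 for 12 h against 6 h (60), 43 to 57 for 24 h against 12 h (54), 12 to 19 for 24 h against 6 h (18) and 0 to 4 for 48 h against 24 h (2). In CBW leaves they ranged from 30 to 37 for 12 h against 6 h (38), 12 to 18 for 24 h against 12 h (22), 0 to 0 for 48 h against 24 h (1) and 45 to 55 for 48 h against 6 h (58). The 22 calls became 12 without CBW replicate 2 at 12 h or replicate 1 or 3 at 24 h. Fitting only the groups compared gave 9 calls between 24 and 6 h in control leaves, and 0 between 48 and 24 h. The latter count was 0 with arrays centred on their median, 4 with a floor and 1 with the replicate block. In CBW leaves the single call between 48 and 24 h became 2 with quantile normalization, centring, dim probe sets left out, the replicate block or an intensity trend, 6 with a floor and 18 with only the groups compared, so no member is reliably called between 24 and 48 h. The cause was not tested.

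The labels do not say what a replicate number shares across treatments. The deviations of same-numbered arrays correlated from -0.17 to 0.52 across probe sets, with all 3 pairs above 0 at 12 h (0.20 to 0.52) and 24 h (0.092 to 0.49) and none at 48 h. The numbers were taken as names because no pairing is stated. A pairing of control and CBW arrays within 12 or 24 h was not tested. The replicate block gives each replicate number an effect shared by all times and both treatments, so it cannot take up a pairing within a time. It gave 60 calls at 12 h, where the fit without it gave 62, and moved only the counts between 24 and 48 h by over 1.5 times. Among the named values, the floor turned the sign of Gorai.006G088100.1 between 24 and 48 h in CBW leaves (0.071) and of Gorai.011G068500.1 at 6 h (-0.072). The 24 h difference of Gorai.N010400.1 missed the threshold without control replicate 1 or 3 or CBW replicate 2 (-2.74, -2.70 and -2.57), and that of Gorai.007G319900.1 at 12 h without control replicate 2 (-0.25), without any 1 CBW array (-0.57 to -0.62) or with only the 2 groups. Differences of members below the 20th percentile are limited by signal near the bottom of the scale. The comparison with stress-annotated probe sets outside the list was not run.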
